A study of Ovis aries with 26 samples.

Results

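Gestational change in the non-CF sheep pancreas was examined by comparing the fetuses labelled WT 120 with those labelled WT 80 or HZ 80. These 7 libraries, 3 at 120 days and 4 at 80 days of gestation, were defined by their labels out of the 26 single-cell libraries of the series. They held 17237 of the 79510 cells kept under the same filter in the whole series. The study sequenced dissociated pancreas from WT and CFTR-deficient American Romney sheep at 80 and 120 days of gestation and at term by droplet-based single-cell RNA-seq (10x Genomics). The comparison asks which genes of each pancreatic lineage differ with age where CFTR function is intact.

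At 80 days, donors 1 and 3 were labelled WT and donors 2 and 4 HZ. The HZ fetuses carried a WT CFTR allele and a disrupted CFTR allele, and the study used them as WT on the ground of normal histology. All 4 fetuses at 80 days were male, and donors 2 to 4 were triplets of the same ewe. At 120 days all 3 fetuses were labelled WT, donor 2 was female, and donors 1 and 2 were listed under the same dam number. No fetus of either age was described as cloned or treated. Litter, genotype and sex were therefore not balanced over age, and no sequencing date was given in the sources used here. The paper names alternative dissociation enzymes and alternative kit versions without assigning them to libraries, so their balance over age is not known. Each fetus gave 1 library, so an age mean rests on 4 or 3 animals.

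The exocrine pancreas makes and exports digestive enzymes. Acinar cells package them as zymogens, and duct cells carry them to the gut in a bicarbonate-rich fluid driven in part by CFTR. In the fetus these epithelia grow out of a common progenitor pool, surrounded by mesenchyme that supplies growth factors and matrix, while endocrine cells delaminate to form islets. Late gestation is also the period in which fetal glucocorticoid rises and many organs prepare for feeding and air breathing.

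Cells were assigned to lineages by the summed level of fixed marker genes, with a margin over the next lineage that left out cells scoring for 2 lineages, and UMIs were then summed per fetus and lineage. Depth was 28859706 to 55005000 UMIs per library at 80 days and 50766117 to 81413308 UMIs at 120 days, with medians of 10077 to 16416 and 9726 to 20309 UMIs per kept cell. The barcodes kept were 8398 of 10411 at 80 days and 8839 of 12023 at 120 days. In each lineage the summed markers of that lineage were higher than those of any other gate. Of the kept cells, 977 (5.668%) lay close to a gate threshold. Levels are given as CPM, the UMIs of a gene per 1e6 UMIs of the lineage, scaled by edgeR's trimmed mean of M-values (TMM). Fold changes are log2 of 120 over 80 days. A gene was called when edgeR's quasi-likelihood test gave a Benjamini-Hochberg adjusted p of at most 0.05. The SE is an approximation, the size of the fold change over the square root of that test's F statistic. It is not dependable for fold changes near 0. The test treated littermates as separate animals. With littermates summed, edgeR called 23 duct, 17 endocrine, 61 stromal, 66 endothelial and 1 immune genes. It then called 0 acinar and 0 mural genes, with 1586 and 679 at an unadjusted p under 0.05. Values are listed in the order of donors 1 to 4 at 80 days and donors 1 to 3 at 120 days. Donor 3 at 120 days stood apart in heat-shock genes in most lineages, and the heat-shock group and the named genes that rest on it are also given without it.

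Stromal cells were a smaller share of the kept cells at 120 days. They made up 16.5% ± 2.18 (SD, n = 4) at 80 days and 5.80% ± 1.73 (SD, n = 3) at 120 days, with no overlap between ages (exact two-sided permutation p = 0.0571, the smallest that 3 against 4 allows, adjusted p = 0.2 over the 7 lineages). Acinar cells were 31.8% ± 6.58 and 51.9% ± 15.4 of the kept cells, and the ages overlapped (exact permutation p = 0.114, adjusted p = 0.2). Duct cells were 9.25% and 14.8%, endocrine cells 17.5% and 11.2%, endothelial cells 2.69% and 3.56%, mural cells 2.54% and 2.48%, and immune cells 7.64% and 3.00% of the kept cells on average. None of these differences passed the adjusted threshold of 0.05, which this design could not reach. With a stricter gate, which asked for a wider margin, duct cells were 6.10% and 8.30% and immune cells 5.71% and 1.405%. Endothelial cells were then 2.22% and 1.86%, in the opposite direction. The shares are of cells released by dissociation, not of the tissue.

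**Figure D1:**
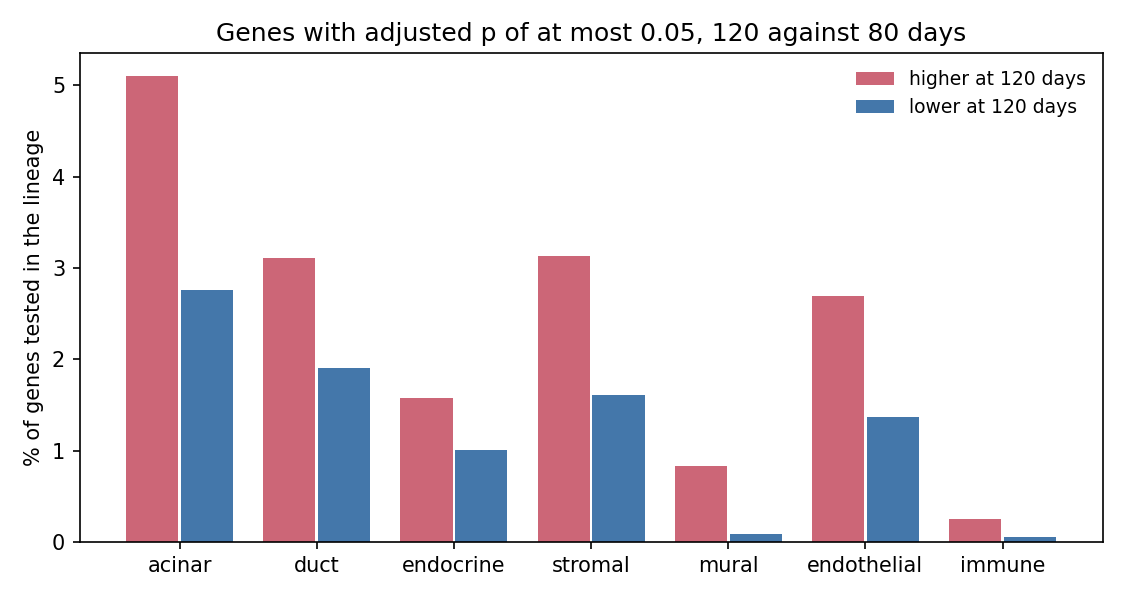
Percent of the genes tested in each lineage that were called higher (red) or lower (blue) at 120 days than at 80 days. Bars start at 0, each bar is 1 count over the genes tested in that lineage, and there is no error bar because the count has no replicate. The share called higher ran from 0.25% in immune to 5.1% in acinar cells.

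The most abundant transcript in acinar cells of all 7 fetuses was LOC101117443, which has no gene symbol in the study's tables or in RefSeq and is named here because of its level, after its values were seen. It took 17.5%, 20.4%, 24.8% and 16.2% of acinar UMIs at 80 days and 39.0%, 43.1% and 36.3% at 120 days, without overlap. Its TMM-scaled level in acinar cells was higher at 120 days (log2 fold change 1.88 ± 0.23 (SE), adjusted p = 0.00492). In the other 6 lineages it was 0.0801% to 0.276% of UMIs at 80 days and 0.563% to 2.09% at 120 days. In stromal cells it was also called higher (log2 fold change 3.33 ± 0.20 (SE), adjusted p = 7.67e-06). The 2 ages did not overlap in any lineage.

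**Figure D2:**
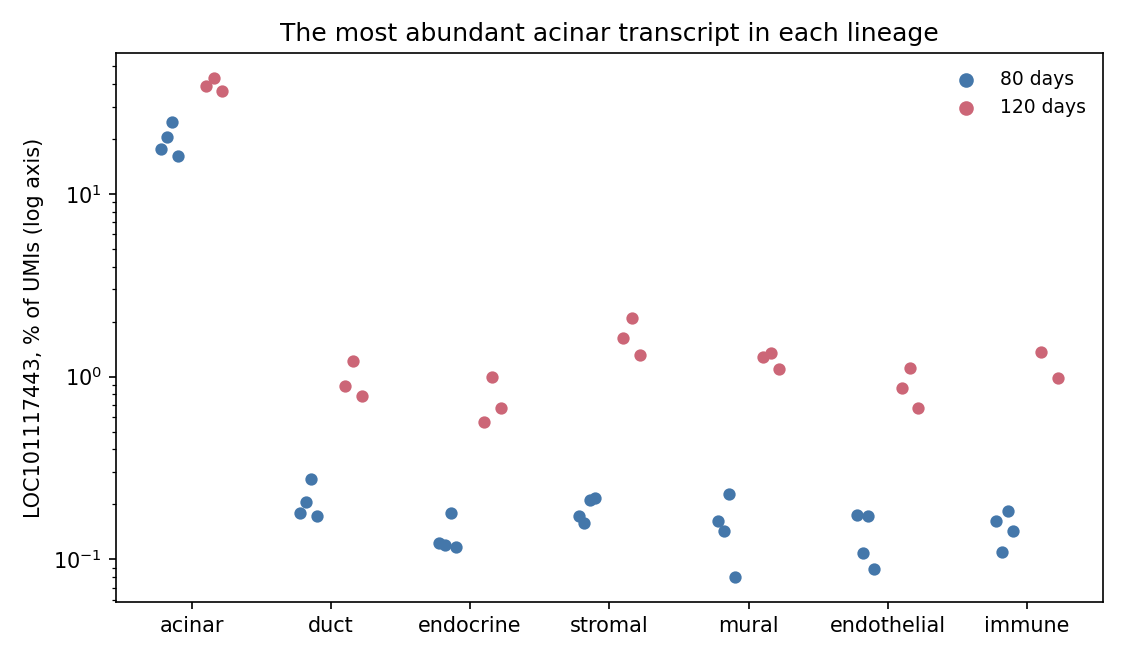
LOC101117443 as a percent of all UMIs of a lineage (log axis), 1 point per fetus, 80 days in blue and 120 days in red. Acinar cells sat at 16.2% to 43.1%, the other lineages at 0.0801% to 2.09%, and every lineage was higher at 120 days.

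The same held for the trypsinogen transcript PRSS2 (LOC101112559), which was called higher in all 7 lineages while its level outside acinar cells stayed under 5% of the acinar level. In stromal cells 12 of the 13 digestive enzyme genes tested were called higher, with a summed share of 0.035% to 0.065% of UMIs at 80 days and 0.189% to 0.405% at 120 days. Transcripts highest in acinar cells were therefore also counted in the other lineages, at a larger share at 120 days. Their source and their part in other differences were not tested. Calls at under 10% of the level of the highest lineage numbered 42 in duct, 56 in endocrine, 46 in stromal, 12 in mural, 23 in endothelial and 11 in immune cells, and of these 18, 23, 29, 12, 16 and 11 were highest in acinar cells. Genes named below as results of a lineage had at least 10% of the level of the highest lineage unless the sentence says otherwise.

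In acinar cells 684 of 13402 genes tested (5.1%) were called higher and 370 (2.76%) lower at 120 days, 7.86% in all, and the ages did not overlap for 23.3% of the genes tested. Digestive enzyme genes rose: 11 of 14 tested were called higher and none lower, 7 of them whichever fetus was left out, with a median log2 fold change of 2.46 against -0.002 over all genes. PRSS2 (LOC101112559), an anionic trypsinogen, was at 2624, 3361, 4412 and 3699 CPM at 80 days and 19711, 18523 and 12965 CPM at 120 days (log2 fold change 2.28 ± 0.21 (SE), adjusted p = 0.00222). Each fetus at 120 days was above every fetus at 80 days.

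Other secreted enzymes had larger fold changes. The chymotrypsinogen CTRB1 (LOC101116249) was at 48.8, 46.9, 77.5 and 46.8 CPM at 80 days and 759, 1145 and 221 CPM at 120 days (log2 fold change 3.69 ± 0.47 (SE), adjusted p = 0.00537). Chymotrypsin C, CTRC, which regulates trypsinogen activation, was at 309.7, 128, 221 and 316 CPM at 80 days and 1613, 2563 and 1282 CPM at 120 days (log2 fold change 2.90 ± 0.34 (SE), adjusted p = 0.0049). The phospholipase PLA2G1B was at 263, 352, 769.9 and 511 CPM at 80 days and 3702, 4439.5 and 2494 CPM at 120 days (log2 fold change 2.90 ± 0.36 (SE), adjusted p = 0.00492). None of these overlapped between ages. Smaller rises were called for the elastases CELA1 (1.70 ± 0.24) and CELA3B (LOC101103454) (1.35 ± 0.22), the carboxypeptidases CPA1 (LOC101117326) (1.22 ± 0.24) and CPB1 (2.65 ± 0.54), and the amylase AMY2B (LOC101118831) (1.64 ± 0.32). Kallikrein 1, KLK1, rose from 14.8, 16.3, 20.5 and 14.6 to 210.2, 226 and 108 CPM (log2 fold change 3.46 ± 0.26 (SE), adjusted p = 0.00105). Trypsinogens, chymotrypsinogens, elastases and amylases have near-identical copies, so reads may be split between them and single values are uncertain.

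**Figure D3:**
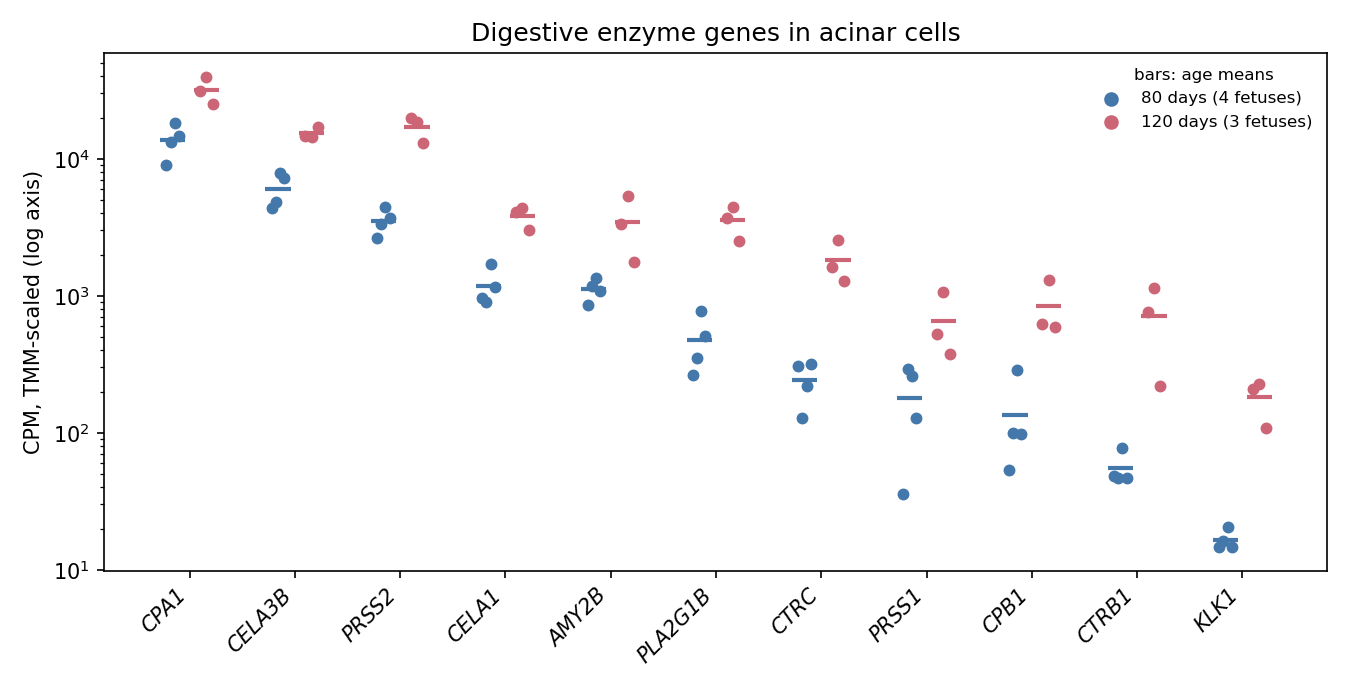
CPM of 11 digestive enzyme genes in acinar cells on a log axis, 1 point per fetus with a bar at the mean of each age (80 days blue, 120 days red). KLK1 separated by the widest gap relative to its level, and PRSS1, which was not called, spread from 35.5 to 294 CPM at 80 days.

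Pancreatic lipase, PNLIP, was called but stayed low, at 0 to 0.344 CPM at 80 days and 0.965 to 3.06 CPM at 120 days. Colipase, CLPS, the cofactor of lipase, was not called and varied widely, with 1150.5, 621, 6344 and 2154 CPM at 80 days and 22720.0, 40317 and 2504 CPM at 120 days (adjusted p = 0.0782). Donor 3 at 120 days was below donor 3 at 80 days for this gene. PRSS1 was not called either (log2 fold change 1.87 ± 0.62 (SE), adjusted p = 0.102), though its ages did not overlap.

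These acinar fold changes depend on scaling. With plain library size in place of TMM, an alternative chosen after seeing the data, the median log2 fold change of all acinar genes was -0.918 and 148 genes were called higher and 9510 lower. The digestive enzyme group kept 11 higher calls and a median of 1.60 under plain library size. In the other lineages plain library size moved the median to between -0.42 and -0.135. All changes below are relative to the TMM scale, on which the median gene does not move.

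The apparatus that folds and exports secretory proteins moved less. Of 15 zymogen granule and secretion genes tested, 5 were called higher and none lower (median 0.54), but with plain library size 1 was called higher and 6 lower (median -0.35). SPINK1, the trypsin inhibitor of zymogen granules, was at 522, 569.5, 457 and 556 CPM at 80 days and 1044, 1325 and 1187 CPM at 120 days (log2 fold change 1.17 ± 0.14 (SE), adjusted p = 0.0049). AQP8, a water channel, rose by 1.03 ± 0.14 and the stress protein gene NUPR1 by 1.08 ± 0.19, and TMED6, a cargo receptor of the early secretory pathway, rose by 0.67 ± 0.14 but was at -0.23 with plain library size.

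Unfolded protein response genes behaved alike, with 10 of 29 tested called higher and none lower (median 0.43), 3 of them whichever fetus was left out, against 2 higher and 13 lower (median -0.46) with plain library size. HSPA5, the main chaperone of the endoplasmic reticulum, was at 832, 1044, 1007 and 933 CPM at 80 days and 1694, 2661 and 3221 CPM at 120 days (log2 fold change 1.40 ± 0.21 (SE), adjusted p = 0.00831), without overlap. The pancreatic disulphide isomerase PDIA2 rose by 2.04 ± 0.34, P4HB by 0.99 ± 0.17 and HERPUD1, of the degradation pathway, by 1.18 ± 0.20, whereas the rise of the transcription factor gene ATF4 (0.85 ± 0.16) turned to -0.06 with plain library size.

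Stromal gate markers in acinar cells went from a median of 50.6 to 3.58 CPM by plain library size, without TMM scaling. On that scale the median log2 fold change of all acinar genes was -0.918. The part of stromal RNA in the acinar falls was not tested. ID1, an inhibitor of basic helix-loop-helix factors induced by BMP signalling, was at 177, 113, 109 and 234 CPM at 80 days and 2.96, 1.24 and 11.6 CPM at 120 days (log2 fold change -4.91 ± 0.73 (SE), adjusted p = 0.00833). ID4, of the same family, fell from 64.7, 54.1, 59.6 and 73.6 to 9.39, 7.62 and 29.6 CPM (log2 fold change -2.02 ± 0.43 (SE), adjusted p = 0.0273). CDKN1C, an imprinted cell cycle inhibitor, fell from 202, 169, 223 and 178 to 70.1, 49 and 93.8 CPM (log2 fold change -1.44 ± 0.22 (SE), adjusted p = 0.0088). No fetus at 120 days reached the lowest fetus at 80 days for any of these genes.

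IGF2BP1, a fetal mRNA-binding protein gene, fell by 0.83 (adjusted p = 0.00591), the ligand gene BMP7 by 1.64 and NOTCH1 by 0.78 on the log2 scale. Of 11 acinar transcription factor genes, NR5A2, a nuclear receptor needed for the acinar programme, fell by 0.59 (adjusted p = 0.0243), and its small partner NR0B2 rose by 1.36 ± 0.25 from a level of under 5 CPM. Of 34 cell division genes edgeR called none (median -0.11), but with plain library size 32 were called lower (median -1.03), beside 9510 of all 13402 genes, and the proliferation marker MKI67 was at 3.81 to 12 CPM at 80 days and 8.36 to 12.4 CPM at 120 days (adjusted p = 0.371).

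Albumin, ALB, rose the most among the genes that met the naming rule, from 0.737, 1.72, 1.54 and 1.72 to 19.8, 157 and 18 CPM (log2 fold change 5.58 ± 0.84 (SE), adjusted p = 0.00873), with the 2 ages apart. The size of this rise leans on donor 2 at 120 days, and the call held whichever fetus was left out. Of the trefoil peptides, which protect mucosal surfaces, TFF2 was at 807, 638, 711 and 621 CPM at 80 days and 2343, 2904 and 1538 CPM at 120 days (log2 fold change 1.70 ± 0.21 (SE), adjusted p = 0.00492), and TFF1 rose by 1.90 ± 0.26 (adjusted p = 0.00591). The membrane mucin gene MUC1 rose by 0.95 ± 0.15.

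Heat-shock genes were also higher, with 11 of 24 genes of dissociation and heat shock called (median 0.75), or 7 higher and 5 lower (median -0.19) with plain library size. Without donor 3 at 120 days 13 were called higher (median 0.91), beside 932 of all 13550 genes then tested. Of the 11, 6 kept their call whichever fetus was left out. The co-chaperones DNAJA4 and BAG3 completed the 3 largest rises. BAG3 was at 21.6, 36.3, 21.7 and 18.6 CPM at 80 days and 118, 262 and 867 CPM at 120 days (log2 fold change 4.08 ± 0.60 (SE), adjusted p = 0.00817), and its log2 fold change was 2.96 without donor 3 at 120 days. DNAJA4 was at 5.51, 5.15, 4.77 and 3.03 CPM at 80 days and 44.8, 81.3 and 178 CPM at 120 days (log2 fold change 4.46 ± 0.45 (SE), adjusted p = 0.00268), and 3.78 without that donor. Of the 13 mitochondrially encoded genes 9 were called higher under TMM (median 0.84), 5 of them whichever fetus was left out, while with plain library size 1 was called higher and 2 lower (median -0.05).

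The acinar calls depended on which animals were used. Without the HZ fetuses, or with littermates summed, edgeR called 0 acinar genes, with 1946 and 1586 at an unadjusted p under 0.05, and the DESeq2 Wald test on all animals called 987 higher and 593 lower.

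In duct cells 362 of 11657 genes tested (3.11%) were called higher and 222 (1.9%) lower at 120 days, 5.01% in all, or 185 higher and 434 lower with plain library size. The ages did not overlap for 19.6% of the genes tested. Cell division genes leaned lower: 7 of 34 tested fell and none rose, with a median log2 fold change of -1.49, or 10 fell with a median of -1.68 under plain library size. Each of the 7 lost its call when at least 1 of the fetuses was left out, and without donor 3 at 120 days 1 was called lower (median -1.11). The mitotic kinase gene BUB1 was at 30.6, 33.5, 10.6 and 24.2 CPM at 80 days and 7.16, 7.61 and 4.46 CPM at 120 days (log2 fold change -2.02 ± 0.38 (SE), adjusted p = 0.0164), without overlap. The cyclin gene CCNB1 was at 58.7, 57.8, 7.55 and 25.4 CPM at 80 days and 9.07, 5.58 and 4.46 CPM at 120 days (log2 fold change -2.58 ± 0.58 (SE), adjusted p = 0.0341). Donor 3 at 80 days was low for this gene and fell within the range of the 120-day fetuses. The same held for the summed cell division genes, at 0.4227%, 0.3984%, 0.1359% and 0.2956% of duct UMIs at 80 days. Their sum was 0.1604%, 0.1421% and 0.1112% at 120 days, so the ages overlapped for the group.

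The epigenetic regulator UHRF1 fell by 1.17, the replication helicase gene MCM4 by 0.85, CDC20 by 2.22, the centromere gene CENPA by 2.22 and the kinesin gene KIF20A by 2.25 on the log2 scale. MKI67 was not called, at 102, 52.8, 23.4 and 52.6 CPM at 80 days and 27.2, 34.5 and 8.08 CPM at 120 days (adjusted p = 0.144). The cyclin-dependent kinase inhibitor gene CDKN1A rose from 38.6, 31.4, 32.5 and 32 to 175, 121 and 685 CPM (log2 fold change 3.28 ± 0.51 (SE), adjusted p = 0.00878). Its log2 fold change was 2.13 without donor 3 at 120 days.

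Among fetal and imprinted growth genes 3 fell in duct cells, and each kept its call whichever fetus was left out. IGF2BP1 was at 17.1, 9.27, 18.1 and 12.5 CPM at 80 days and 0.478, 1.01 and 0.697 CPM at 120 days (log2 fold change -4.32 ± 0.42 (SE), adjusted p = 0.000938). The heparin-binding growth factor gene MDK was at 982, 806, 884 and 947 CPM at 80 days and 393, 413 and 382 CPM at 120 days (log2 fold change -1.19 ± 0.14 (SE), adjusted p = 0.00258), and IGF2BP3 fell by 1.11 on the log2 scale. Both ages were apart for all 3 genes.

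Of 21 developmental signalling genes tested 5 fell and none rose. FGF7, a mesenchymal growth factor for epithelium, had 214 duct UMIs over the 4 fetuses at 80 days and 2 over the 3 fetuses at 120 days, a pooled ratio of 154.7 with a 95% counting interval of 42.3 to 1286 (adjusted p = 0.000938). NOTCH1, a receptor that holds progenitors undifferentiated, fell by 0.97 (adjusted p = 0.00893), BMP7 by 2.28 and the hedgehog-binding protein gene HHIP by 2.11 on the log2 scale. The neurotrophin receptor gene NTRK2 was at 113, 60.6, 98.1 and 98.9 CPM at 80 days and 26.3, 14.2 and 20.5 CPM at 120 days (log2 fold change -2.17 ± 0.26 (SE), adjusted p = 0.0022). Stromal gate markers in duct cells also went down, from a median of 93.0 to 29.3 CPM by plain library size, and their part in the fall of genes that stromal cells make, FGF7 and NTRK2 among them, was not tested.

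The 3 largest falls under the naming rule were DUSP9, CXCL12 and ST6GAL2. DUSP9, a phosphatase of MAP kinases, was at 16.8, 21.4, 27.9 and 22.6 CPM at 80 days and 1.91, 3.04 and 1.39 CPM at 120 days (log2 fold change -3.50 ± 0.34 (SE), adjusted p = 0.000938). The chemokine gene CXCL12 was at 57.2, 39.2, 44.5 and 145 CPM at 80 days and 1.67, 11.2 and 12.3 CPM at 120 days (log2 fold change -3.13 ± 0.62 (SE), adjusted p = 0.0205). The sialyltransferase gene ST6GAL2 was at 19.1, 26.4, 22.6 and 32.3 CPM at 80 days and 1.91, 5.07 and 3.07 CPM at 120 days (log2 fold change -3.01 ± 0.34 (SE), adjusted p = 0.00169). All 3 separated the ages completely.

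The largest rise was the eotaxin-type chemokine gene CCL26, at 5.76, 7.85, 9.81 and 6.1 CPM at 80 days and 109, 308 and 69.3 CPM at 120 days (log2 fold change 4.53 ± 0.50 (SE), adjusted p = 0.00155). Donor 2 at 120 days was the highest for CCL26, and the call held whichever fetus was left out. The inducible heat-shock genes HSPA1B (LOC494436) and HSPA6 came next. HSPA1B was at 14.4, 43.5, 33.2 and 18.6 CPM at 80 days and 122, 138 and 1241 CPM at 120 days (log2 fold change 4.28 ± 0.80 (SE), adjusted p = 0.0168), with 2.36 without donor 3 at 120 days, and it has near-identical copies. HSPA6 was at 37, 8.56, 8.3 and 4.32 CPM at 80 days and 42.3, 45.2 and 746 CPM at 120 days (log2 fold change 4.13 ± 1.04 (SE), adjusted p = 0.0497), and without donor 3 at 120 days the value was 1.40 and the gene was no longer called.

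Other duct genes called higher coded for secreted proteins and an enzyme regulator. Angiotensinogen, AGT, was at 318, 431, 372 and 140.3 CPM at 80 days and 1960.0, 1423 and 1884 CPM at 120 days (log2 fold change 2.48 ± 0.32 (SE), adjusted p = 0.00371). SERPINA1, the main circulating inhibitor of neutrophil elastase, was at 24.4, 26.4, 34 and 4.83 CPM at 80 days and 348, 223 and 268 CPM at 120 days (log2 fold change 3.73 ± 0.46 (SE), adjusted p = 0.00276). PDK4, which restrains pyruvate oxidation, was at 62.5, 111, 97.4 and 66.1 CPM at 80 days and 453, 378 and 315 CPM at 120 days (log2 fold change 2.20 ± 0.23 (SE), adjusted p = 0.00111). These 3 genes, with the peptide hormone gene ENHO (2.37 ± 0.24), were among 13 of 584 duct calls that held under every alternative, 2 of which were under 10% of the acinar level. The 13 include the gate markers ELF5 (duct) and S100B (glial). PRSS2 and PLA2G1B, also among the 13, could not be tested in the alternative that left out acinar enzyme and gate genes.

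PIGR, which carries immunoglobulin A across epithelium, rose, at 2.88, 4.99, 3.02 and 8.14 CPM at 80 days and 19.8, 20.3 and 17.8 CPM at 120 days (log2 fold change 1.95 ± 0.35 (SE), adjusted p = 0.0143). Of 16 interferon-stimulated genes tested 5 rose and none fell (median 0.39), 3 of them whichever fetus was left out, and under plain library size 4 rose. IFI44 rose by 2.25 ± 0.33, the interferon regulatory factor genes IRF1 by 1.57 ± 0.25, IRF9 by 1.40 ± 0.23 and IRF7 by 2.97 ± 0.57, the last at 1.70 without donor 3 at 120 days. Of 29 unfolded protein response genes 5 rose (median 0.40), among them XBP1 (1.26 ± 0.26) and HSPA5 (1.60 ± 0.35). With donor 3 at 120 days left out 2 were called (median 0.21), and the XBP1 and HSPA5 calls were each lost when at least 1 of the fetuses was left out.

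CFTR, the anion channel lost in cystic fibrosis, was at 370.2, 204, 297 and 163 CPM at 80 days and 236, 298 and 208 CPM at 120 days (log2 fold change -0.07 ± 0.27 (SE), adjusted p = 0.916), and the ages overlapped. The secretin receptor gene SCTR (-0.04 ± 0.21), the transcription factor gene SOX9 (0.15 ± 0.16) and carbonic anhydrase CA2 (0.58 ± 0.17, adjusted p = 0.0759) did not pass the threshold. Of 23 duct transport and mucin genes tested 2 rose and none fell. ELF5, a transcription factor gene of duct cells, was among the markers used to choose the cells and is given as a description only, at 304, 163, 190.2 and 295 CPM at 80 days and 38, 38.6 and 31.8 CPM at 120 days, where every fetus at 120 days was below every fetus at 80 days.

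In endocrine cells 189 of 11992 genes tested (1.58%) were called higher and 121 (1.01%) lower, 2.59% in all, or 97 higher and 401 lower with plain library size. For 16.7% of the genes tested the ages did not overlap. Endocrine sums hold several hormone-producing cell types, so fewer cells of a type and less RNA per cell cannot be told apart in them. Of 30 islet hormone and granule genes tested 2 rose and none fell (median -0.04), or 1 rose and 2 fell with a median of -0.28 under plain library size. Transthyretin, TTR, was at 9126, 10582, 10324 and 7640.2 CPM at 80 days and 17895, 15790.0 and 13360.0 CPM at 120 days (log2 fold change 0.74 ± 0.16 (SE), adjusted p = 0.0361). The glucose transporter gene SLC2A2 was at 41.7, 56.1, 67.7 and 60.00 CPM at 80 days and 189.8, 112 and 82.7 CPM at 120 days (log2 fold change 1.19 ± 0.25 (SE), adjusted p = 0.0344). Neither gene overlapped between ages, and each lost its call when at least 1 of the fetuses was left out.

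Glucagon, GCG, was the highest of the hormone transcripts given here at both ages and was not called, with 106020.0, 102400.0, 102490.0 and 75332 CPM at 80 days and 94779, 105980.0 and 62590.0 CPM at 120 days (log2 fold change -0.14 ± 0.20 (SE), adjusted p = 0.776). Somatostatin, SST, was at 15735, 15209, 8954 and 10106 CPM at 80 days and 9077, 12859 and 7469.6 CPM at 120 days (adjusted p = 0.476). Pancreatic polypeptide, PPY, ranged widely, with 2391, 647, 449 and 1846 CPM at 80 days and 1206, 24180.0 and 6359 CPM at 120 days (adjusted p = 0.0767), and donor 2 at 120 days was the highest. The insulin gene was not analysed here. The transcription factor gene NEUROG3, which marks endocrine progenitors, stayed under 5 CPM in every fetus (adjusted p = 0.159), and ghrelin, GHRL, was at 45.5, 17.3, 5.18 and 18 CPM at 80 days and 10.8, 2.76 and 1.12 CPM at 120 days (adjusted p = 0.162).

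Of 18 islet transcription factor genes tested none was called (median -0.39, with 2 of the 18 above 0), while 4 were called lower with plain library size (median -0.60). PAX6 (-0.03 ± 0.14) and NEUROD1 (-0.19 ± 0.12) did not pass the threshold. In the edgeR fit the endocrine lineage had 2153 genes (18%) at an unadjusted p under 0.05.

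Metallothioneins and other glucocorticoid-responsive genes rose in endocrine cells, 5 of 14 tested, with none falling (median 0.69). Leaving out donor 3 at 120 days gave 3 calls, and 2 kept their call whichever fetus was left out. MT1A (LOC101117184), a metal-binding stress protein gene, was at 13.3, 27.7, 10.8 and 7.47 CPM at 80 days and 296, 108 and 98.5 CPM at 120 days (log2 fold change 3.56 ± 0.45 (SE), adjusted p = 0.00549). MT2A (LOC101117955) rose by 2.58 ± 0.38, the transcription factor gene KLF9 by 1.50 ± 0.29, PDK4 by 0.89 ± 0.19 and NR3C1, the glucocorticoid receptor, by 0.67 ± 0.12, and the calls of these last 3 were each lost when at least 1 of the fetuses was left out. SERPINA1 was at 88.6, 28.4, 35.6 and 19.5 CPM at 80 days and 319.6, 364 and 191 CPM at 120 days (log2 fold change 2.75 ± 0.42 (SE), adjusted p = 0.0102).

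The 3 largest falls under the naming rule were EGR3, LEFTY2 and CTSZ. EGR3, an immediate early transcription factor gene, was at 15.2, 86.3, 47.2 and 54 CPM at 80 days and 9.04, 5.52 and 6.75 CPM at 120 days (log2 fold change -2.77 ± 0.51 (SE), adjusted p = 0.0206). LEFTY2, an inhibitor of nodal signalling, was at 30.3, 46, 89.5 and 24.6 CPM at 80 days and 6.2, 2.76 and 8.66 CPM at 120 days (log2 fold change -2.75 ± 0.48 (SE), adjusted p = 0.0157). The lysosomal protease gene CTSZ was at 404, 219, 282 and 195 CPM at 80 days and 59.4, 38.6 and 79.8 CPM at 120 days (log2 fold change -2.15 ± 0.28 (SE), adjusted p = 0.00628). None overlapped between ages.

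BAG3 was the third gene among the largest rises, at 11.6, 18.5, 9.53 and 8.34 CPM at 80 days and 26.6, 60.7 and 121 CPM at 120 days (log2 fold change 2.60 ± 0.43 (SE), adjusted p = 0.0144), and without donor 3 at 120 days it was at 1.75 and no longer called. TMEM190, a membrane protein gene, had 247 endocrine UMIs at 80 days and 2 at 120 days, a pooled ratio of 83.5 with a 95% counting interval of 22.9 to 693 (adjusted p = 0.00111), and its call held under every alternative. Collagen genes also fell in endocrine cells, among them COL1A1 (-1.97 ± 0.36) and COL3A1 (-1.85 ± 0.31), at under 1% of the stromal level. Stromal gate markers in endocrine cells went from a median of 35.4 to 13.3 CPM by plain library size, and their part in these falls was not tested.

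In stromal cells 331 of 10576 genes tested (3.13%) were called higher and 170 (1.61%) lower, 4.74% in all, or 230 higher and 477 lower with plain library size. Ages without overlap were seen for 18.8% of the genes tested. The matrix programme changed in composition and not in 1 direction: of 51 extracellular matrix genes tested 8 rose and 5 fell (median 0.08), or 6 rose and 10 fell with a median of -0.12 under plain library size. COL15A1, a basement membrane collagen, was at 15.2, 17, 19.1 and 9.62 CPM at 80 days and 563, 234 and 358 CPM at 120 days (log2 fold change 4.67 ± 0.30 (SE), adjusted p = 1.47e-05). Matrix Gla protein, MGP, an inhibitor of calcification, was at 685, 678, 1154 and 1072 CPM at 80 days and 5824, 7200.5 and 5803 CPM at 120 days (log2 fold change 2.81 ± 0.22 (SE), adjusted p = 7.24e-05). Neither gene overlapped between ages, and COL15A1 at 120 days varied more between fetuses than MGP.

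The insulin-like growth factor binding proteins moved in both directions. IGFBP5 was at 1284, 1470.4, 1545 and 1572 CPM at 80 days and 4618, 3398 and 2969 CPM at 120 days (log2 fold change 1.32 ± 0.18 (SE), adjusted p = 0.00182). IGFBP3 rose by 1.86 ± 0.25 (adjusted p = 0.00182). IGFBP2 fell, at 508, 447, 345 and 431 CPM at 80 days and 104, 117 and 155 CPM at 120 days (log2 fold change -1.77 ± 0.19 (SE), adjusted p = 0.000592). Their ligand IGF1 rose, at 129.9, 161, 181 and 219.9 CPM at 80 days and 586, 386 and 574 CPM at 120 days (log2 fold change 1.58 ± 0.20 (SE), adjusted p = 0.00147), and the fetal ligand IGF2 was not called (0.42 ± 0.18, adjusted p = 0.214).

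**Figure D4:**
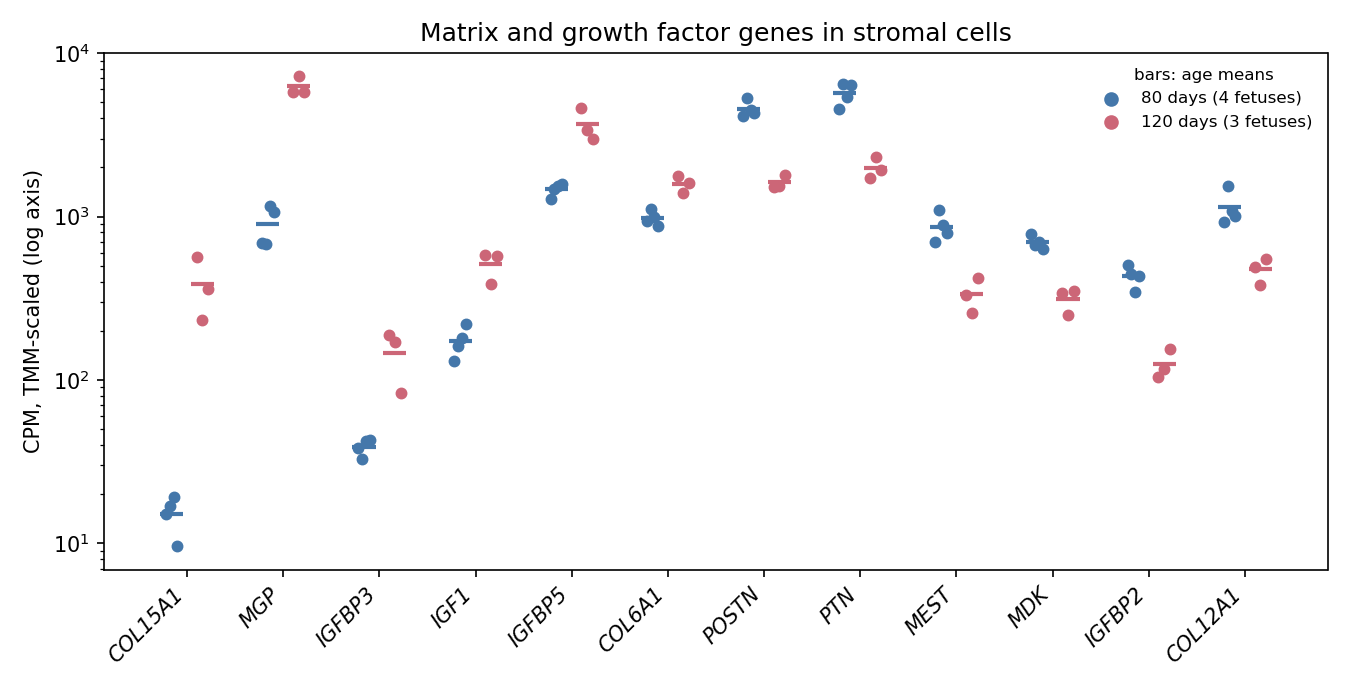
CPM of 12 matrix and growth factor genes in stromal cells on a log axis, 1 point per fetus with a bar at the mean of each age (80 days blue, 120 days red). The 6 genes on the left were higher at 120 days and the 6 on the right lower, and no gene shown overlapped between ages.

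Of 18 fetal and imprinted growth genes tested 3 fell and 1 rose. Pleiotrophin, PTN, a heparin-binding growth factor, was at 4567, 6447, 5392 and 6364 CPM at 80 days and 1717, 2322 and 1935 CPM at 120 days (log2 fold change -1.52 ± 0.18 (SE), adjusted p = 0.0012). The imprinted gene MEST fell by 1.35 and MDK by 1.14 on the log2 scale. Among the matrix genes that fell, periostin, POSTN, was at 4138, 5322, 4495 and 4328 CPM at 80 days and 1513, 1546 and 1795 CPM at 120 days (log2 fold change -1.50 ± 0.16 (SE), adjusted p = 0.000566). Fibrillin 2, FBN2, fell by 1.20, COL12A1 by 1.25, the elastic fibre genes LOXL1 by 0.86 and MFAP2 by 0.54.

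Fibrillar collagens did not pass the threshold. COL1A1, the main chain of type I collagen, was at 10887, 17215, 13647 and 11849 CPM at 80 days and 6986, 10626 and 7340.1 CPM at 120 days (adjusted p = 0.0961), without overlap. COL3A1 was at 12221, 19034, 15446 and 15059 CPM at 80 days and 13293, 17972 and 9348 CPM at 120 days (adjusted p = 0.701). The microfibrillar collagen genes COL6A1 (0.69 ± 0.15) and COL6A2 (1.02 ± 0.18) rose.

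The 3 largest rises included APOD and ADAMDEC1 beside COL15A1. Apolipoprotein D, APOD, was at 3.37, 3.82, 2.43 and 2.26 CPM at 80 days and 32.9, 19.5 and 428 CPM at 120 days (log2 fold change 5.90 ± 0.89 (SE), adjusted p = 0.00401), and at 3.16 without donor 3 at 120 days. ADAMDEC1, a metalloprotease gene of mucosal fibroblasts, was at 19.2, 0, 1.04 and 0.566 CPM at 80 days and 31.3, 113 and 147 CPM at 120 days (log2 fold change 4.23 ± 0.83 (SE), adjusted p = 0.0155), with donor 1 at 80 days apart from the others. The largest falls were the potassium channel gene KCNB2 (-3.58 ± 0.56), ST6GAL2 (-3.48 ± 0.63) and PLAU, urokinase (-3.41 ± 0.59).

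Signalling genes split, with 4 of 33 tested higher and 3 lower. TGFBI, a matrix protein gene induced by TGF-beta, rose by 1.15 ± 0.16, hepatocyte growth factor, HGF, by 0.88 ± 0.21 and the Notch target HES1 by 1.88 ± 0.33. BMP4 fell, at 146, 122, 95.2 and 119 CPM at 80 days and 49.4, 60.7 and 34.3 CPM at 120 days (log2 fold change -1.40 ± 0.22 (SE), adjusted p = 0.00521). The Wnt antagonist gene SFRP2 fell by 1.55 and NCAM1 by 1.13 on the log2 scale.

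Glucocorticoid-responsive genes rose in stromal cells, 9 of 17 tested, and 1 fell (median 1.13). Leaving out donor 3 at 120 days gave 5 called higher and 1 lower (median 0.91). KLF9 was at 5.06, 1.27, 1.74 and 4.53 CPM at 80 days and 31.3, 45.5 and 20.1 CPM at 120 days (log2 fold change 3.18 ± 0.45 (SE), adjusted p = 0.00266). HSD11B1, the enzyme that regenerates active glucocorticoid, rose from 3.71, 2.12, 4.52 and 2.26 to 32.9, 6.5 and 20.1 CPM (log2 fold change 2.68 ± 0.46 (SE), adjusted p = 0.00788). The receptor NR3C1 rose by 1.01 ± 0.17, MT1A by 2.77 ± 0.53 and PDK4, at just under 10% of its duct level, by 2.03 ± 0.30. The exception was FKBP5, a co-chaperone that damps the receptor and is itself a common glucocorticoid target, at 48.6, 50.5, 51.1 and 50.4 CPM at 80 days and 13.2, 21.7 and 15.7 CPM at 120 days (log2 fold change -1.62 ± 0.20 (SE), adjusted p = 0.0012).

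Lipoprotein lipase, LPL, was at 6.07, 10.2, 8.68 and 13 CPM at 80 days and 54.3, 39 and 49.2 CPM at 120 days (log2 fold change 2.32 ± 0.26 (SE), adjusted p = 0.000634). Complement C1 inhibitor, SERPING1, rose by 1.36 ± 0.18 and the proteoglycan gene PODN by 1.66 ± 0.21. These genes with COL15A1, MGP and IGF1 were among 45 of 501 stromal calls, 39 higher and 6 lower, that held under every alternative. Of the 39, 17 were under 10% of the acinar level and highest in acinar cells. The 39 include the acinar gate markers CEL, PNLIPRP2 and SERPINI2. These and the digestive enzyme genes among the 39 could not be tested in the alternative that left out acinar enzyme and gate genes.

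In mural cells, pericytes and smooth muscle, 37 of 4442 genes tested (0.833%) were called higher and 4 (0.09%) lower, 0.923% in all, with 20 to 154 cells per fetus and no overlap between ages for 11.4% of genes. The chemokine gene CCL2 (LOC101120093) was at 47, 24.8, 10.7 and 5.96 CPM at 80 days and 630.0, 368 and 236 CPM at 120 days (log2 fold change 4.03 ± 0.55 (SE), adjusted p = 0.0081). MT2A was at 83.6, 18.6, 17.8 and 73.5 CPM at 80 days and 904, 857 and 299 CPM at 120 days (log2 fold change 3.63 ± 0.53 (SE), adjusted p = 0.0102), and CDKN1A rose by 3.33 ± 0.35. The glycolytic gene LDHA rose by 1.77 ± 0.23 and the glucose transporter gene SLC2A3 by 1.53 ± 0.25. MEST fell from 109, 205, 135 and 155 to 34.8, 40.4 and 30.5 CPM (log2 fold change -2.09 ± 0.29 (SE), adjusted p = 0.00848), and the protease gene ADAMTS5 by 2.31 on the log2 scale. PLAC9 fell by 2.78, and CAPN6 had 62 UMIs at 80 days and 3 at 120 days, a ratio of 15.1 with a counting interval of 4.92 to 75. All 4 genes called lower were highest in stromal cells, stromal gate markers in mural cells went from a median of 1785 to 877 CPM by plain library size, and their part in these falls was not tested. No mural gene was called lower by edgeR without donor 1 or donor 3 at 120 days, with 492 and 387 genes of either direction at an unadjusted p under 0.05, and the calls of MT2A and SLC2A3 were each lost when at least 1 of the fetuses was left out.

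Smooth muscle contractile genes were not called in mural cells, 0 of 17 tested in edgeR, whose fit had 502 mural genes (11.3%) at an unadjusted p under 0.05. Enteric actin, ACTG2, was at 13381, 422, 638 and 592 CPM at 80 days and 707, 772 and 549.7 CPM at 120 days (adjusted p = 0.453), and desmin, DES, was at 3583, 161, 96.2 and 131 CPM at 80 days and 459.9, 242 and 183 CPM at 120 days (adjusted p = 0.638). Both were high in donor 1 at 80 days, the fetus from a separate litter, and without it the ACTG2 value was 0.27 in place of -2.48.

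In endothelial cells 208 of 7726 genes tested (2.69%) were called higher and 106 (1.37%) lower, 4.06% in all, or 135 higher and 337 lower with plain library size. The ages were apart for 17.6% of the genes tested. P-selectin, SELP, the adhesion receptor of venules that captures leukocytes, was at 5.43, 12.2, 11.7 and 5 CPM at 80 days and 80.6, 70.8 and 83.2 CPM at 120 days (log2 fold change 3.27 ± 0.30 (SE), adjusted p = 0.00037). ACKR1, the chemokine receptor of venules, was at 44.6, 19.6, 5.87 and 16.7 CPM at 80 days and 142, 121 and 85.8 CPM at 120 days (log2 fold change 2.28 ± 0.41 (SE), adjusted p = 0.0118). CXCL12 rose, at 88, 203, 168 and 205 CPM at 80 days and 348, 335 and 369 CPM at 120 days (log2 fold change 1.09 ± 0.25 (SE), adjusted p = 0.0348). The ages were apart for all 3. Of 30 endothelial subtype genes tested 3 rose and 2 fell, or 2 rose and none fell without donor 3 at 120 days. The group's median was -0.15, with 11 of the 30 above 0. With plain library size 2 rose and 5 fell (median -0.43).

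Antigen presentation genes rose, 5 of 10 tested, and none fell (median 1.22), and 3 of the 5 kept their call whichever fetus was left out. HLA-DMA, which loads peptide on class II molecules, was at 5.43, 4.9, 1.96 and 1.67 CPM at 80 days and 25.6, 18.8 and 17.8 CPM at 120 days (log2 fold change 2.44 ± 0.44 (SE), adjusted p = 0.0123). Both entries named B2M, the light chain of class I molecules, were called higher, and they count as 2 of the 10 tested and of the 5 called. The class II chaperone gene CD74 rose by 5.05 ± 0.62 at under 2% of its immune level, and the part of immune RNA in it was not tested.

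Of 17 interferon-stimulated genes tested 7 rose and none fell (median 0.99), 3 of them whichever fetus was left out, or 3 rose with a median of 0.71 under plain library size. IRF1 was at 7.61, 12.2, 13.7 and 16.7 CPM at 80 days and 62.7, 70.8 and 53.5 CPM at 120 days (log2 fold change 2.33 ± 0.29 (SE), adjusted p = 0.00152). IFI6 was at 34.8, 17.1, 54.8 and 33.3 CPM at 80 days and 189, 218 and 212 CPM at 120 days (log2 fold change 2.54 ± 0.26 (SE), adjusted p = 0.00077). The ligand gene TNFSF10 rose by 2.89 ± 0.44 and thrombomodulin, THBD, an anticoagulant receptor, by 1.68 ± 0.18.

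The cytokine genes IL6 and CSF3 were among the 3 largest rises. IL6 was at 0, 2.45, 5.87 and 5 CPM at 80 days and 21.7, 65 and 148 CPM at 120 days (log2 fold change 4.70 ± 0.78 (SE), adjusted p = 0.00807). CSF3 was at 0, 4.9, 3.91 and 0 CPM at 80 days and 19.2, 59.3 and 169.8 CPM at 120 days (log2 fold change 5.54 ± 0.94 (SE), adjusted p = 0.00904). Donor 3 at 120 days was highest for both, and without it their values were 3.80 and 4.39. The mitochondrial protein gene EFHD1 had 1 UMI at 80 days and 58 at 120 days, a ratio of 43.1 with a counting interval of 7.44 to 1732.

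PRND, the prion-like protein gene of developing vessels, fell the most, at 50.00, 26.9, 90.03 and 36.7 CPM at 80 days and 5.11, 7.23 and 2.55 CPM at 120 days (log2 fold change -3.42 ± 0.51 (SE), adjusted p = 0.00453). The matrix gene FBLN1 fell by 3.16 and BMP4 by 2.44 on the log2 scale. Both were highest in stromal cells, stromal gate markers in endothelial cells went from a median of 27.7 to 5.98 CPM by plain library size, and their part in these falls was not tested. SLC2A1, the glucose transporter of barrier endothelium, was at 73.9, 71, 114 and 53.4 CPM at 80 days and 19.2, 10.1 and 34 CPM at 120 days (log2 fold change -1.79 ± 0.36 (SE), adjusted p = 0.0206), and MMRN1 fell by 1.27. VWF (-0.16 ± 0.19), PLVAP (0.64 ± 0.30) and KDR (-0.49 ± 0.17) did not pass the threshold.

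Immune cells could be compared in 2 fetuses against 4, since donor 1 at 120 days had 19 cells and was left out of the fit, and 19 of 7585 genes tested (0.25%) were called higher and 4 (0.0527%) lower, 0.303% in all, or 5 higher and 4 lower with plain library size. With 2 against 4 fetuses the ages did not overlap for 26.7% of genes. Immune sums hold several cell types, so a changed mix of cells and a changed level per cell cannot be told apart in them. Of the 19, 11 were under 10% of the level of the highest lineage and were highest in acinar cells. The hyaluronan receptor gene LYVE1 was at 83.9, 127, 68.7 and 54.3 CPM at 80 days and 0 and 5.47 CPM at 120 days (log2 fold change -4.75 ± 0.73 (SE), adjusted p = 0.0462), where the 120-day values are donors 2 and 3. MS4A7, a macrophage membrane protein gene, was at 44.8, 78.1, 54.4 and 80.6 CPM at 80 days and 4.92 and 8.21 CPM at 120 days (log2 fold change -3.26 ± 0.44 (SE), adjusted p = 0.0344). CD69, an early activation marker of lymphocytes, was at 71.4, 46.4, 75.8 and 103 CPM at 80 days and 307 and 264 CPM at 120 days (log2 fold change 1.93 ± 0.29 (SE), adjusted p = 0.0462). SRGAP1 fell by 4.14 on the log2 scale, and the co-chaperone gene DNAJB1 rose by 2.71 ± 0.36. Each of these 5 calls was lost when donor 2, donor 3 or donor 4 at 80 days was left out. Leaving out a fetus at 120 days leaves 1, which is then assumed to vary like the 80-day fetuses. With acinar enzyme and gate genes left out 1 immune gene was called.

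Macrophage genes had a median log2 fold change of -1.39 over 21 tested in immune cells, and edgeR called 0 of them, with 1232 immune genes (16.2%) at an unadjusted p under 0.05. The complement gene C1QB was at 963, 1040.0, 736 and 858 CPM at 80 days and 41 and 272 CPM at 120 days (adjusted p = 0.149). The mannose receptor gene MRC1 was at 88.1, 364, 152 and 146 CPM at 80 days and 11.5 and 58.8 CPM at 120 days (adjusted p = 0.196). T and NK cell genes had a median of 0.83 over 13 tested. Without donor 3 at 120 days, with 1 fetus left at that age, the macrophage median was -3.29 with 3 called lower and the T and NK cell median 1.55. CD3E was at 364, 100.1, 347 and 208 CPM at 80 days and 1038 and 329.8 CPM at 120 days (adjusted p = 0.266), with overlap.

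Several groups had the same sign of median in most lineages, in fits that share the same 7 fetuses. Cell division genes had a negative median in all 7 lineages, -1.49 in duct, -0.85 in stromal, -0.65 in endocrine and -0.35 in endothelial cells. It was smaller in acinar cells (-0.11). In mural (-0.02) and immune cells (-0.002) it was no lower than the median of all genes tested (-0.026 and -0.008). Outside duct cells at most 1 member was called lower. With plain library size 32 were called lower in acinar, 7 in stromal and 3 in endocrine cells. Heat-shock and dissociation genes had a positive median in all 7 lineages, from 0.21 in immune to 1.01 in endothelial cells, but -0.19 in acinar and -0.28 in immune cells with plain library size. Without donor 3 at 120 days the stromal median was 0.32 in place of 0.92, the endothelial 0.73 in place of 1.01 and the mural 0.28 in place of 0.52. The duct median was then 0.775 in place of 0.779, the endocrine 0.292 in place of 0.300 and the acinar 0.91 in place of 0.75. The immune median, with 1 fetus left at 120 days, was 0.224 in place of 0.207. The group took 4.05% of stromal UMIs in donor 3 at 120 days, against 2.06% and 2.08% in the other 120-day fetuses and 1.73% to 2.51% at 80 days, and 3.12% of endothelial UMIs, against 1.39% and 1.23% in the others and 1.20% to 1.40% at 80 days. In both lineages the other 120-day fetuses lay within the 80-day range. Mitochondrially encoded genes ran from 0.57 in duct to 1.00 in stromal cells, with -0.05 in acinar cells under plain library size. Outside acinar cells the higher shares of UMIs were those of donors 1 and 2 at 120 days, listed under the same dam number. In stromal cells the group of 13 genes took 4.39%, 4.31% and 2.28% of UMIs at 120 days and 1.80% to 2.96% at 80 days. Donor 3 was within the 80-day range in stromal, mural and immune cells, below it in duct and endothelial cells and above it in endocrine cells. Glucocorticoid-responsive genes ran from -0.04 in immune to 2.00 in mural cells, where 2 of 9 tested were called. Their acinar median was 0.28, or -0.655 with plain library size. Fetal and imprinted growth genes had a negative median in all 7 lineages, from -0.68 in immune to -0.15 in endocrine cells, and at most 3 were called lower in any lineage. With plain library size 15 of 23 were called lower in acinar cells, where 9510 of all 13402 genes were, and at most 5 in any other lineage. Without donor 3 at 120 days 6 were called lower in acinar cells, beside 615 of all 13550 genes then tested.

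**Figure D5:**
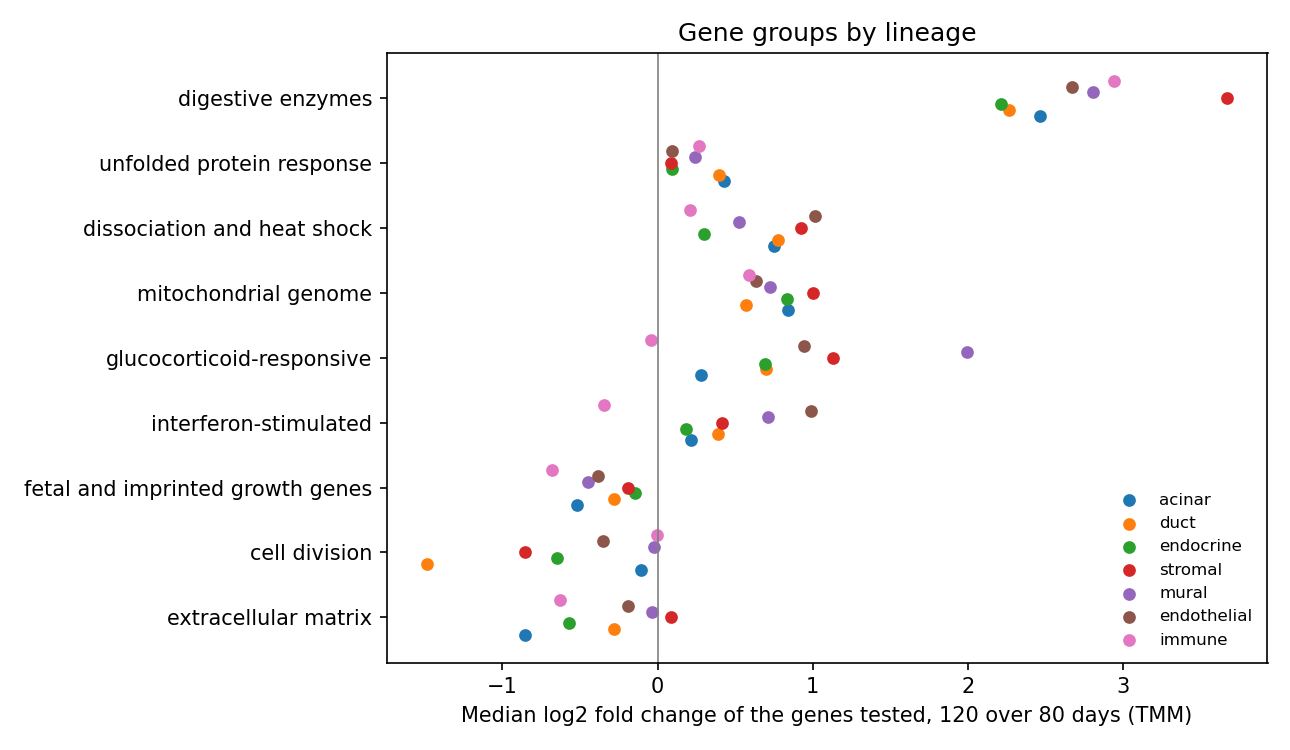
Median log2 fold change, 120 over 80 days on the TMM scale, of the genes tested in 9 groups (rows), with 1 coloured point per lineage. Digestive enzymes were to the right of 0 in every lineage, as far as 3.67 in stromal cells. With plain library size the acinar points for the unfolded protein response, heat shock, mitochondrial, glucocorticoid-responsive and interferon-stimulated groups move to the left of 0.

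The same gene could move in opposite directions. CXCL12 fell in duct cells and rose in endothelial cells, and the difference between the lineages was not tested. The duct call was lost without donor 4 at 80 days, and the endothelial call without donor 2, 3 or 4 at 80 days or donor 1 or 3 at 120 days. IGF2BP1 fell in acinar, duct and endothelial cells, by 2.55 on the log2 scale in the last. KLF9 rose in endocrine, stromal and endothelial cells (3.16 ± 0.43 in the last). PDK4 rose in duct, endocrine and stromal cells.

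Some further calls named above were lost when at least 1 of the fetuses was left out. In acinar cells these were AMY2B, ATF4, CPA1, CPB1, HERPUD1, ID4, NOTCH1, NR0B2, NR5A2, NUPR1, PNLIP and TMED6. In duct cells they were BMP7, HHIP, HSPA1B and IRF7, in endocrine cells COL1A1, EGR3 and LEFTY2, and in endothelial cells BMP4, IGF2BP1, MMRN1 and SLC2A1. In stromal cells they were ADAMDEC1, COL6A1, HGF, LOXL1, MFAP2, NCAM1, PLAU and SFRP2.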

How the data were processed

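Dissociated pancreas of 7 fetuses was profiled by 10x Genomics single-cell RNA-seq, with 1 library per fetus. The deposited values are raw UMI counts per gene and barcode that the authors made with Cell Ranger 3.1.0 (named in the submitters' processing notes) on the Oar_v4.0 sheep assembly, with barcodes already called as cells. Feature identifiers are those of the files: of 24478 features 8432 carry LOC names, of which 137 were named from the study's tables and a further 573 from RefSeq for another assembly. Genome positions and sequences were not used here.

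Barcodes with over 200 and under 6000 genes and under 25% MT- UMIs were kept. Lineages were assigned from fixed markers with a score minimum of 1.25 and a margin of 0.75 over the next lineage, thresholds set after the score distributions were seen. The margin removed cells with 2 lineage scores, and no doublet caller was used. Gate markers are not named as results and are left out of the numbers of list members tested and called. They are included in the numbers of all genes tested, of all calls and of calls that held under every alternative. UMIs were summed per fetus and lineage, with at least 20 cells required. edgeR 4.0.16 (quasi-likelihood test, TMM, filterByExpr, R 4.3.3) compared ages in each of 7 lineages, with Benjamini-Hochberg adjustment over all genes of a lineage and a threshold of 0.05. Lineage shares were compared by exact two-sided permutation tests (scipy 1.17.1). In simulated data 82% to 99.5% of changed genes were recovered per lineage, and 4.42% to 7.51% of calls were false. Whether these rates hold for the fetuses used here, some of them littermates, was not tested. The rates were not split by fold change or level, and whether they hold for small fold changes or low levels was not tested.

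The members and gene lists were chosen with earlier results of these data known. Named genes were, per lineage, the 3 largest rises and 3 largest falls among called genes without overlap between ages, with at least 20 CPM in the higher age, at least 0.1 of the level in the highest lineage, a symbol, and no role in the gate, ribosome or mitochondrion, plus members of the lists. LOC101117443, TMEM190 and the genes said to hold under every alternative were named after their values were seen. A few genes are not reported here. Donor numbers shared by the ages did not pair the fetuses. The alternatives were DESeq2 1.42.0, RLE size factors, plain library size, no filter on low counts, a replicate block, leaving out the HZ fetuses, summing littermates, a stricter gate, leaving out acinar enzyme and gate genes, and leaving out each fetus. A gene that an alternative did not test was judged to hold on the remaining alternatives. Intervals on UMI counts cover counting error only.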

Additional observations from a re-analysis of the deposited data

Results flagged for a closer look

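In 203 sets of 4 values at 80 days, 16 had 1 fetus far from the other 3, and chance alone flags about 1 in 20 such sets. The number given is the gap from that fetus to its nearest neighbour over the range of the 4, set against Dixon's 95% critical value. Each of the sets in the next sentences was picked out for this reason alone.

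Donor 1, the fetus of a separate litter, was the one apart for mural ACTG2 (0.983) and DES (0.981), with the values given in the report, for stromal ADAMDEC1 (0.946) and COL6A2 (0.88), for duct HSPA6 (0.87), CDKN1A (0.851) and HSPA5 (0.841), and for the acinar share of kept cells (0.835), which was 41.5% against 27.3% to 29.7%. It was the highest of the 4 in each of these but COL6A2, where it was the lowest.

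Donor 2 was apart for stromal KCNB2 (0.952) and immune SRGAP1 (0.953), and was the highest in both. Donor 3 was apart for acinar CTRB1 (0.935), stromal MT1A (0.92) and endocrine LOC101117443 (0.864), and was the highest in all 3. Donor 4 was apart for duct ENHO (0.882) and CXCL12 (0.83), where it was the highest, and for endocrine GCG (0.882), where it was the lowest at 75332 CPM.

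The change of CXCL12 with age differed between duct and endothelial cells, with every fetus at 120 days below those at 80 days in the one and above them in the other. The age difference in mean log2(CPM + 1), duct minus endothelial, was -4.20. CXCL12 was picked out for this separation and the difference was not tested.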

How the results depend on the processing

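Gene counts depended on which fetuses were used. Leaving out 1 fetus at a time gave 309 to 1547 calls in acinar, 154 to 582 in duct, 94 to 315 in endocrine, 247 to 529 in stromal, 10 to 51 in mural, 125 to 493 in endothelial and 1 to 120 in immune cells, against 1054, 584, 310, 501, 41, 314 and 23 with all fetuses. The count moved by over 1.5 times without donor 2, 3 or 4 at 80 days or donor 1 or 2 at 120 days in acinar cells (360, 571, 309, 390 and 363), without donor 2 or 4 at 80 days or donor 1 at 120 days in duct cells (194, 154 and 379), and without any fetus but donor 1 at 80 days in endocrine cells (94, 204 and 98 without donors 2 to 4 at 80 days, 155, 137 and 197 without donors 1 to 3 at 120 days). It did so without donor 2, 3 or 4 at 80 days or donor 1 or 3 at 120 days in stromal cells (285, 297, 247, 277 and 299), without donor 3 or 4 at 80 days or donor 1 or 3 at 120 days in mural cells (26, 23, 10 and 17), without donors 1 to 4 at 80 days or donor 1 or 2 at 120 days in endothelial cells (181, 147, 145, 125, 202 and 493), and without any of the 6 fetuses in immune cells (13, 3, 1, 1, 120 and 10). The cause was not tested beyond the smaller number of fetuses.

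Without the HZ fetuses edgeR called 0 acinar, 19 duct, 17 endocrine, 81 stromal, 12 mural, 21 endothelial and 0 immune genes, with 1946 acinar and 631 immune genes at an unadjusted p under 0.05. With littermates summed it called 0, 23, 17, 61, 0, 66 and 1, with 1586 acinar and 679 mural genes at an unadjusted p under 0.05. Both settings leave 2 samples at 80 days, and the second also 2 at 120 days. DESeq2 called 81 mural and 213 immune genes. No filter on low counts gave 476 endocrine, 755 stromal, 369 mural, 733 endothelial and 400 immune calls. The stricter gate gave 20 mural and 9 immune calls, and leaving out acinar enzyme and gate genes gave 1 immune call. Plain library size gave 9658 acinar, 498 endocrine, 472 endothelial and 9 immune calls, and reversed acinar TMED6 (-0.233) and ATF4 (-0.0628).

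Donor numbers did not pair the fetuses: in no lineage did every same-numbered pair correlate above 0.1 in its deviations from the age means (0.182, 0.00915 and 0.0159 in acinar cells). With the replicate block edgeR called 75 acinar, 155 duct, 52 endocrine, 219 stromal, 9 mural and 101 endothelial genes. Not every fetus correlated best with its own number.

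The mural share changed sign when fetuses were left out (log2 ratio -0.404 to 0.269 against -0.0335), and the endothelial share with the stricter gate (-0.253 against 0.401). Of the called genes named in the text, 163 of 164 kept their call with DESeq2, 170 of 170 with RLE size factors, 149 of 170 with plain library size, 101 of 170 with the block, 46 of 170 without the HZ fetuses and 45 of 170 with littermates summed. The mural fit had the lowest summed depth, 173732 to 979627 UMIs per fetus, and the fewest genes tested, 4442.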

Other observations

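Genes of the hypoxia and glycolysis list, which has 24 members in the files, had positive fold changes more often than not in each lineage. The list's median log2 fold change was 0.33 in acinar cells (20 of 22 tested members positive, 2 called higher beside 5.1% of all genes), 0.42 in duct cells (17 of 19, 2 called higher beside 3.11%), 0.52 in stromal cells (12 of 15, 2 called higher beside 3.13%) and 0.63 in endothelial cells (12 of 13, 1 called higher beside 2.69% and 1 lower beside 1.37%), where the median of all genes tested was between -0.03 and 0. With plain library size the acinar median was -0.56, with 0 members called higher and 9 of 22 lower beside 9510 of all 13402 genes, so the acinar direction turned, while the medians of the other 3 stayed positive. Without donor 3 at 120 days the 4 medians were 0.09, 0.05, 0.08 and 0.34. VEGFA, the gene of an angiogenic growth factor, was at 26, 8.49, 12.9 and 12.2 CPM at 80 days and 47.7, 41.2 and 88.7 CPM at 120 days in stromal cells (log2 fold change 2.07 ± 0.36 (SE), adjusted p = 0.00824) and at 37.9, 35.7, 40.8 and 47.5 CPM at 80 days and 58.5, 75.6 and 72.2 CPM at 120 days in duct cells (log2 fold change 0.75 ± 0.16 (SE), adjusted p = 0.0291). The 2 ages did not overlap for VEGFA in either lineage. Without donor 3 at 120 days stromal VEGFA was at 1.56 and no longer called, and the duct call was lost without any 1 of the 80-day fetuses or donor 2 at 120 days.

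The genes in the next sentences, and VEGFA, were chosen after their values were seen. In duct cells TLR4, an innate immune receptor gene, was at 1.55, 0.713, 5.28 and 2.8 CPM at 80 days and 19.8, 10.1 and 22.4 CPM at 120 days (log2 fold change 2.88 ± 0.46 (SE), adjusted p = 0.00989), and every 120-day fetus was above every 80-day fetus. In endothelial cells the Notch ligand gene DLL1 was at 41.3, 26.9, 35.2 and 35 CPM at 80 days and 80.6, 86.7 and 127 CPM at 120 days (log2 fold change 1.48 ± 0.23 (SE), adjusted p = 0.0052). LEF1, a transcription factor gene of the Wnt pathway, was at 21.7, 36.7, 21.5 and 31.7 CPM at 80 days and 6.39, 11.6 and 5.94 CPM at 120 days in the same cells (log2 fold change -1.81 ± 0.38 (SE), adjusted p = 0.0229), and its ages did not overlap either. The LEF1 call was lost without donor 2 or 4 at 80 days or donor 1 or 3 at 120 days.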
